A study of Mus musculus with 12 samples.

Results

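The genes described here are 10 members of the bone morphogenetic protein (BMP) pathway, namely the ligands *Bmp2*, *Bmp4* and *Bmp7*, the receptor *Bmpr1a*, the secreted antagonist *Grem1*, the inhibitors *Bambi* and *Smad7*, and the target genes *Id1*, *Id2* and *Id3*. They were chosen by gene name, and all 10 were found among the 54532 genes of both expression tables. The study asked what an intestinal enhancer of *Ctnnb1*, the gene of β-catenin, does for Wnt signaling in normal and tumor tissue. RNA-seq was made from small intestinal crypts and from colon tumors, with 3 libraries in each of 4 groups. The crypts came from adult wild-type mice and from adult *Ctnnb1* Δi.enh mice (ieCtnnb1KO in the labels), in which both copies of the enhancer were deleted in the germline, so that it is missing from every cell of the body. The tumors came from *Apc* Min/+ mice and from *Ctnnb1* Δi.enh;*Apc* Min/+ mice, both at an age of 5 months. A truncating *Apc* allele was thus shared by the tumor groups, which differ in the enhancer. The mice had a C57BL/6 background and no treatment, and the age of the crypt donors is given only as adult. Crypts were released from the intestinal wall with EDTA, whereas the tumor libraries hold whole tissue with its stroma.

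BMP ligands bind pairs of serine/threonine kinase receptors at the cell surface, and the activated receptors phosphorylate SMAD proteins that enter the nucleus and switch on targets such as the *Id* genes. In the intestine, BMP activity is high toward the villus and promotes differentiation, while antagonists released by stromal cells below the crypt keep it low around the stem cells. BAMBI is a membrane protein that resembles a BMP receptor but has no kinase domain and dampens the signal, and its gene can be switched on by Wnt signaling.

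Values are FPKM, that is fragments per kilobase of gene length multiplied by a scaling factor for each library. FPKM times kilobases of length summed to 933891 in wild-type crypt replicate 1 and to 1049130 in wild-type crypt replicate 2, the extremes. The sums differed between libraries, so the factor did not follow the fragments on genes alone. The depth recovered from the steps between low values was 14457896 to 16156712 fragments on genes per library. The tables of crypts and tumors were normalized separately, so knockout and control were compared within a tissue. Only the difference of those effects was tested over all 12 libraries. Epithelial markers summed to between 3620 and 4808 FPKM in the crypt libraries and to between 3607 and 4969 in the tumor libraries, with *Krt8* the most abundant. In crypts, the 10 fibroblast and smooth muscle markers summed to at most 6.60 FPKM and 8 of them had a mean under 0.5, and the endothelial markers summed to at most 1.05. The 8 immune markers, led by *Cd8a*, summed to between 39.9 and 48.0 FPKM there.

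Wild-type crypt replicate 3 had the lowest mean correlation with the other crypt libraries. Its mean correlation with the other wild-type libraries was 0.948 over 14176 genes, against 0.952 and 0.959 for those and 0.968 to 0.971 among the knockout libraries. The 7 Paneth cell markers summed to 22342, 33120 and 59176 FPKM in wild-type replicates 1, 2 and 3, and to 24293, 21470 and 23567 in the knockout. Replicate 3 thus held the most Paneth cell RNA, and the differences of the members tested in crypts are given with and without it. Wild-type replicates 1 and 2 instead held the most stomach marker RNA, at a sum of 203 and 120 FPKM against 14.9 in replicate 3. A fit without replicate 3 rests on those wild-type libraries. Fewer cells of a type and less RNA per cell cannot be told apart in bulk tissue. In tumors, replicate 3 of both genotypes expressed *Xist* (114 and 61.4 FPKM) while the 4 other libraries were under 0.07, so each tumor group held libraries of both sexes.

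*Ctnnb1* (ENSMUSG00000006932) is the gene whose enhancer was deleted, and its level checks the labels. In crypts it was at 121, 134 and 123 FPKM in the wild type and at 102, 104 and 105 in *Ctnnb1* Δi.enh. In tumors it was at 299, 363 and 358 FPKM in *Apc* Min/+ and at 279, 248 and 250 in *Ctnnb1* Δi.enh;*Apc* Min/+. Every knockout library was below every control in either tissue, as the labels have it. On the log2(FPKM + 0.5) scale, which makes changes of weakly expressed genes look smaller, the knockout minus control difference was -0.28 in crypts and -0.39 in tumors (adjusted p = 0.849 and 0.303, limma with Benjamini-Hochberg adjustment). In crypts it was -0.29 without wild-type replicate 3. The enhancer itself has no value in the tables.

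**Figure D1:**
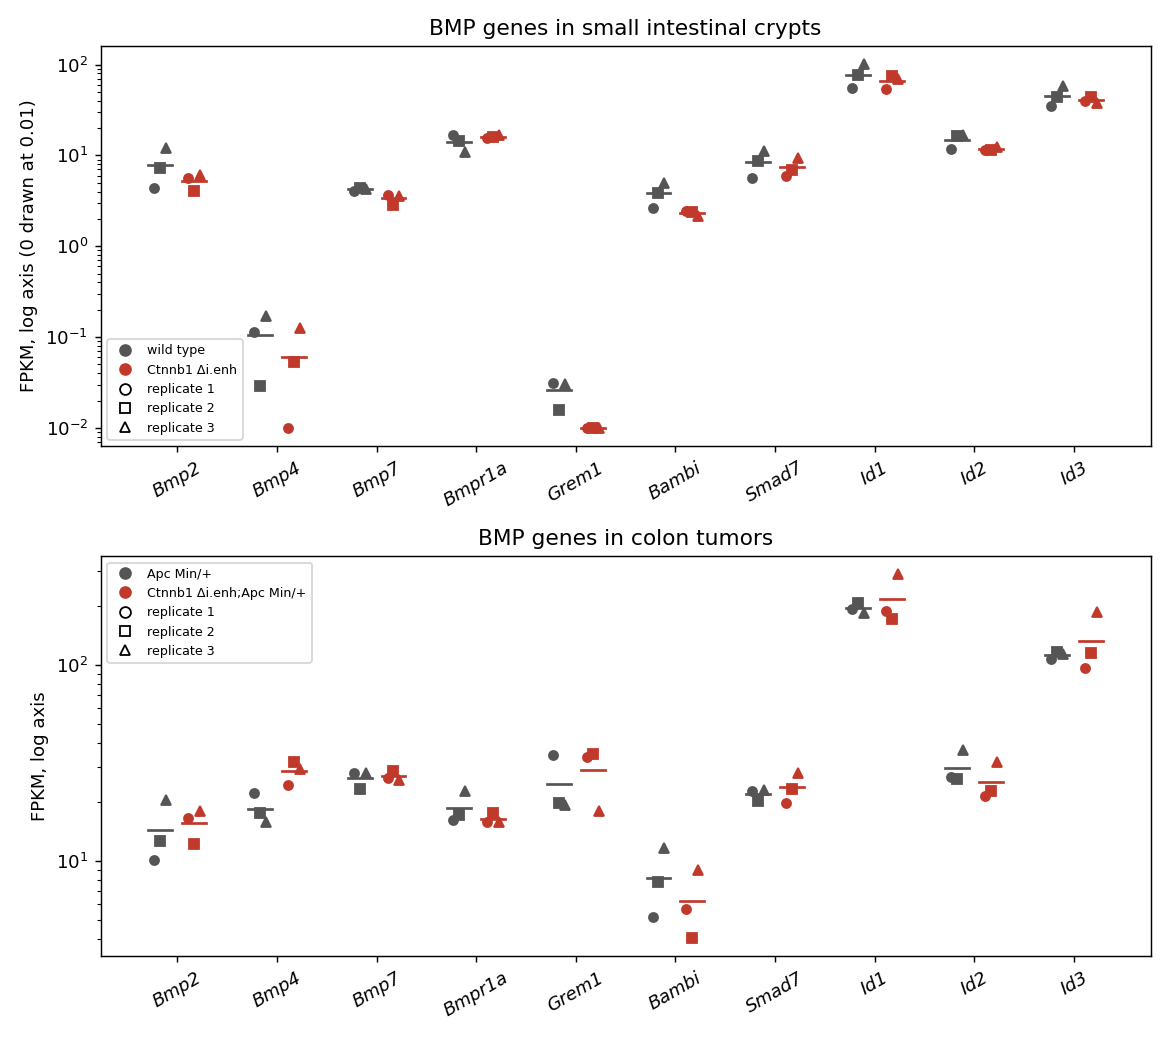
FPKM of the 10 BMP genes in each library on a log axis, crypts above and tumors below, with a point per library (shape for the replicate, color for the genotype), a line at each group mean and 0 drawn at 0.01. *Bambi* and *Bmp7* in crypts and *Bmp4* in tumors have groups that do not overlap, and *Grem1* is listed at 0 in the 3 knockout crypt libraries.

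The members differed widely in level, as the plot of FPKM by library shows. *Id1* was highest in every group, with a mean of 77.7 FPKM in wild-type crypts and 194 in *Apc* Min/+ tumors, and *Id3* came next at 45.6 and 112. In wild-type crypts there followed, in mean FPKM, *Id2* (14.9), *Bmpr1a* (14.0), *Smad7* (8.51), *Bmp2* (7.92), *Bmp7* (4.23) and *Bambi* (3.83). The libraries of neighbors in this order overlapped, except between *Id3* and *Id2* and between *Bmp2* and *Bmp7*. *Bmp4* and *Grem1* closed the order at 0.105 and 0.0259 FPKM, apart from *Bambi*. In *Ctnnb1* Δi.enh crypts the order was the same but for *Bmpr1a* (16.1 FPKM), which stood above *Id2* (11.8).

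In *Apc* Min/+ tumors the order of mean FPKM after *Id1* and *Id3* was *Id2* (29.8), *Bmp7* (26.4), *Grem1* (24.5), *Smad7* (21.9), *Bmpr1a* (18.6), *Bmp4* (18.4), *Bmp2* (14.3) and *Bambi* (8.20). From *Id2* on, each gene overlapped with its neighbor. In *Ctnnb1* Δi.enh;*Apc* Min/+ tumors *Grem1* (28.8 FPKM) and *Bmp4* (28.5) stood ahead of *Bmp7* (26.9) and *Id2* (25.3), and these 4 overlapped in sequence. *Bambi* was the lowest member in both tumor groups.

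Of the 10 members, 8 passed the filter of a mean of 0.5 FPKM in crypts and 10 in tumors. With limma, 0 members passed an adjusted p of 0.05 in crypts, where 0 of 14176 genes did (0%), and 0 in tumors, where 0 of 16743 did (0%). By voom on the recovered fragments the counts were 0 as well. At an unadjusted p under 0.05, limma gave 1 member in crypts, *Bambi*, which was lower, beside 5.85% of all genes (2.36% lower and 3.48% higher). In tumors it gave *Bmp4*, which was higher, beside 14.5% of all genes (6% lower and 8.46% higher). The count in crypts was 0 without wild-type replicate 3, and 0 in 5 of the 6 fits that omit a single library. It was 3 without wild-type replicate 1 (*Bambi*, *Bmp2* and *Id2*) and 3 when scaled without the 50 highest genes (*Bambi*, *Bmp7* and *Id2*). *Bmp4* kept an unadjusted p under 0.05 with any single tumor library omitted, and *Id2*, lower, joined it without knockout replicate 3, with the replicate block and with sex as a covariate. The genes behind the shares over all genes, 494 higher and 335 lower in crypts, were 700 and 641 without wild-type replicate 1 and 241 and 217 without knockout replicate 1. In tumors they were 1417 and 1004, but 850 and 546 without *Apc* Min/+ replicate 2 and 852 and 576 without *Apc* Min/+ replicate 3. Scaling could turn the balance, to 299 higher and 503 lower in crypts when scaled without the 50 highest genes. In tumors equal totals gave 1075 higher and 1344 lower. Among the tested members, groups did not overlap for 2 of 8 in crypts, both lower, beside 11.9% of all genes (5.15% lower and 6.79% higher), and for 1 of 10 in tumors, higher, beside 22.1% of all genes (10.6% lower and 11.4% higher).

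Directions depended on 1 library in crypts and on both the scaling and single libraries in tumors. In crypts 7 of 8 tested members were lower in the knockout under each scaling, with a median log2 difference of -0.25 beside 0.014 over all genes. Without wild-type replicate 3, 4 were lower and 4 higher, with a median of -0.05, while 7 were lower with any other library omitted, with a median of -0.42 without wild-type replicate 1. In tumors 3 members were lower and 7 higher, with a median of 0.11 beside 0.0075 over all genes, but after quantile normalization 6 were lower and 4 higher, with a median of -0.04, and with equal totals or scaled without the 50 highest genes 4 were lower and 6 higher. Without *Ctnnb1* Δi.enh;*Apc* Min/+ replicate 3, 6 were likewise lower and 4 higher, with a median of -0.063, as *Id1*, *Id3* and *Smad7* turned. Without *Apc* Min/+ replicate 1 or 2 or knockout replicate 2, 4 were lower and 6 higher.

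**Figure D2:**
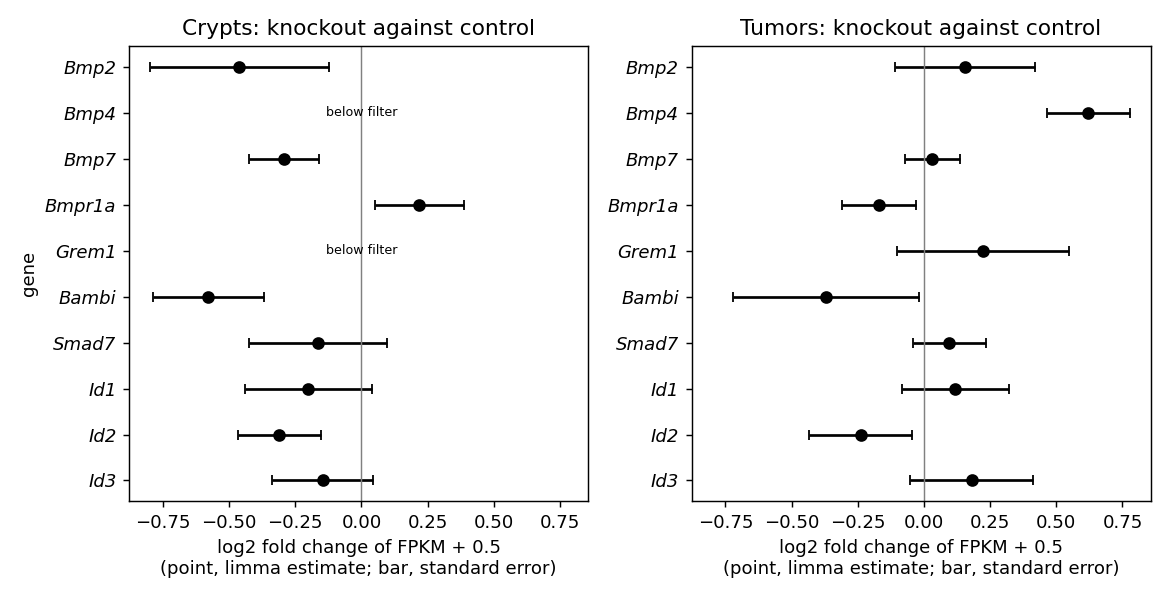
Difference of log2(FPKM + 0.5) between knockout and control for each BMP gene in crypts (left) and tumors (right), with points for limma estimates and bars for 1 standard error. *Bmp4* and *Grem1* were below the filter in crypts, and *Bambi* in crypts and *Bmp4* in tumors lie farthest from 0.

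*Bmp4* (ENSMUSG00000021835; GRCm38 chr14:46383520-46390669, minus strand), a ligand made largely by mesenchymal cells, was higher in tumors without the enhancer. It was at 22.0, 17.5 and 15.8 FPKM in *Apc* Min/+ libraries (mean 18.4 ± 3.23, SD, n = 3) and at 24.2, 32.0 and 29.4 in *Ctnnb1* Δi.enh;*Apc* Min/+ libraries (mean 28.5 ± 3.98, SD, n = 3). Each knockout library lay above each control, with knockout replicate 1 close to control replicate 1. The log2 difference of 0.62 had a standard error of 0.156 (adjusted p = 0.269, limma with Benjamini-Hochberg adjustment), and an exact two-sided permutation test gave p = 0.1, the smallest that 3 against 3 libraries allow. With single libraries omitted the difference was 0.52 to 0.75. In crypts *Bmp4* had 4, 1 and 6 fragments in wild-type and 0, 2 and 4 in knockout libraries, below the filter.

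Summed markers of stromal cells were higher in the knockout tumors, as *Bmp4* was, and so were several epithelial marker lists given below. The 10 fibroblast and smooth muscle markers summed to 461, 329 and 302 FPKM in *Apc* Min/+ and to 479, 574 and 490 in *Ctnnb1* Δi.enh;*Apc* Min/+ libraries, with *Col1a1* the most abundant and no marker at 0. Here too no control reached a knockout library, and 9 of the 10 markers were higher under each scaling. The 6 endothelial markers summed to 33.8, 32.1 and 28.4 FPKM in controls and to 36.7, 35.4 and 35.1 in knockouts, with *Cdh5* the most abundant, no marker at 0 and 5 of 6 higher, or 3 of 6 without *Apc* Min/+ replicate 3. By library, the fibroblast and smooth muscle sums ranked as *Bmp4* did, whereas the endothelial sums of the knockouts did not. The part of these markers in the difference of *Bmp4* was not tested.

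The summed RNA of several epithelial marker lists was higher in the knockout tumors as well, although 0 of their genes passed adjustment in limma. The 6 epithelial markers summed to 4079, 4158 and 3607 FPKM in controls and to 4819, 4673 and 4969 in knockouts, with all 6 higher, or 4 after quantile normalization. The 6 goblet cell markers, led by *Tff3*, summed to 762, 646 and 649 FPKM in controls and to 1210, 1744 and 1386 in knockouts. The 6 colonocyte markers, led by *Car1*, summed to 214, 164 and 182 FPKM in controls and to 302, 489 and 337 in knockouts. None of these 3 sums overlapped between the groups, none of their markers was at 0, and their part in the values of the members was not tested. Paneth cell markers, led by *Lyz1*, overlapped at 1712, 1828 and 1974 against 2657, 4347 and 1414 FPKM, and so did stem cell markers, led by *Smoc2*, at 71.6, 90.7 and 80.8 against 89.5, 62.2 and 71.6 FPKM. The 8 immune markers, led by *Csf1r*, overlapped at 28.0, 19.1 and 23.2 against 29.3, 33.2 and 18.3 FPKM.

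**Figure D3:**
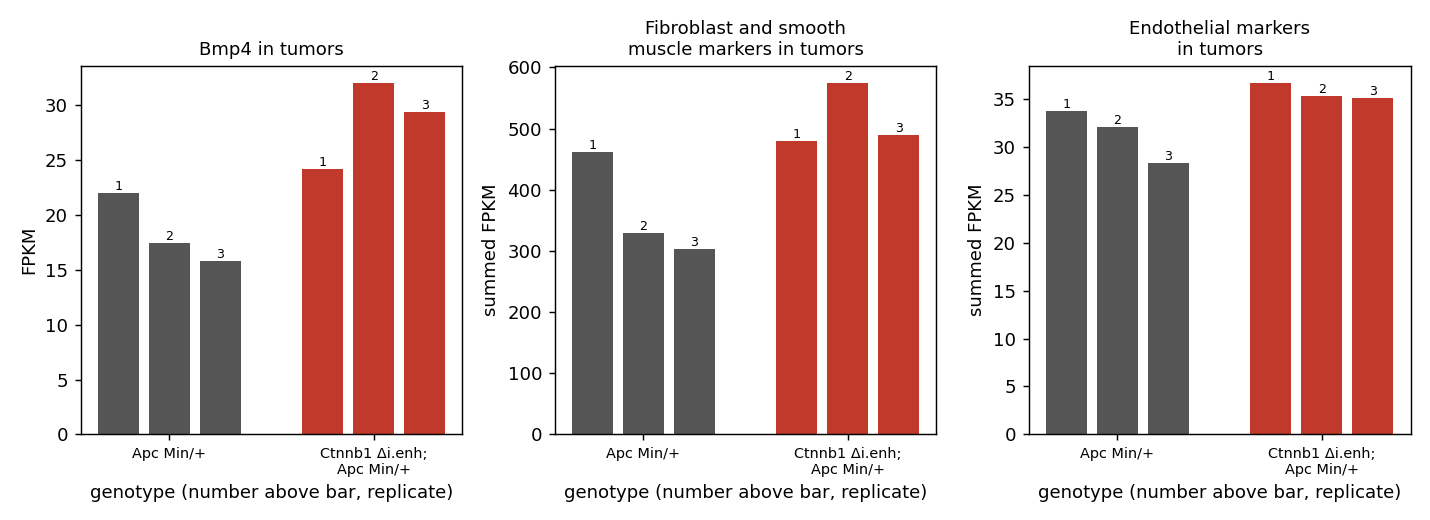
FPKM of *Bmp4* (left), summed FPKM of fibroblast and smooth muscle markers (middle) and of endothelial markers (right) in the tumor libraries, with a bar per library and its replicate number above. In each panel all 3 *Ctnnb1* Δi.enh;*Apc* Min/+ bars are higher than all 3 *Apc* Min/+ bars.

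*Bmp7* (ENSMUSG00000008999; chr2:172868012-172940321, minus strand), another ligand, was at 4.03, 4.41 and 4.25 FPKM in wild-type and at 3.70, 2.88 and 3.56 in *Ctnnb1* Δi.enh crypts. The knockout libraries were all below the closely spaced wild-type libraries. Its log2 difference of -0.29 had a standard error of 0.132 (limma adjusted p = 0.852; exact two-sided permutation p = 0.1), and it was -0.29 also without wild-type replicate 3. In tumors *Bmp7* was at 28.1, 23.1 and 28.1 FPKM in controls and at 26.5, 28.6 and 25.7 in knockouts. Those groups overlapped, and the sign of the difference of 0.03 turned without *Apc* Min/+ replicate 2 (-0.061) or knockout replicate 2 (-0.011). It turned under each other scaling as well, at -0.012 with equal totals, -0.061 after quantile normalization and -0.011 without the 50 highest genes.

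*Bmp2* (ENSMUSG00000027358; chr2:133552159-133562885, plus strand), a ligand related to *Bmp4*, was at 4.42, 7.21 and 12.1 FPKM in wild-type and at 5.62, 4.05 and 6.11 in *Ctnnb1* Δi.enh crypts. Wild-type replicate 3 was the highest library and wild-type replicate 1 fell among the knockouts. A log2 difference of -0.46 (limma adjusted p = 0.896) was -0.11 without wild-type replicate 3 and -0.80 without wild-type replicate 1. In tumors *Bmp2* was at 10.1, 12.6 and 20.3 FPKM in controls and at 16.4, 12.2 and 17.9 in knockouts. These overlapped too, and the difference of 0.15 (limma adjusted p = 0.803) was -0.058 without *Apc* Min/+ replicate 1.

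*Bmpr1a* (ENSMUSG00000021796; chr14:34410734-34503341, minus strand), a type I receptor with kinase activity, was at 16.7, 14.5 and 10.8 FPKM in wild-type and at 15.6, 15.9 and 16.8 in *Ctnnb1* Δi.enh crypts. The lowest value came from wild-type replicate 3 and the groups overlapped. A log2 difference of 0.22 (limma adjusted p = 0.898) was 0.051 without that library. In tumors *Bmpr1a* was at 16.1, 17.2 and 22.6 FPKM in controls and at 15.6, 17.5 and 15.8 in knockouts. Control replicate 3 was the highest, and the difference of -0.17 (limma adjusted p = 0.577) ran from -0.26 to -0.03 when single libraries were omitted.

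*Grem1* (ENSMUSG00000074934; chr2:113746164-113758646, minus strand) encodes Gremlin, an antagonist that binds BMP ligands outside the cell. In crypts it had 2, 1 and 2 fragments in the wild-type libraries and was listed at 0 in the 3 knockout libraries, which is too few for a fold. In tumors it was at 34.7, 19.7 and 19.3 FPKM in controls and at 33.6, 35.0 and 17.9 in knockouts. High and low libraries occurred in both genotypes, and the log2 difference of 0.22 had a standard error of 0.325 (limma adjusted p = 0.766). It ran from 0.054 without knockout replicate 2 to 0.53 without knockout replicate 3.

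*Bmp4* and *Grem1* were near 0 in every crypt library and above 15 FPKM in every tumor library, levels that come from separately normalized tables, and the DNA in front of both genes is shown because they share this pattern. The stretches are from RefSeq on GRCm38.p6, minus strand, 5′ to 3′, and hold no annotated exon. They lie at chr14:46390670-46390919 (*Bmp4*) and chr2:113758647-113758898 (*Grem1*). Both strands were searched for GGCGCC and GTCTAGAC, which SMAD proteins can bind and which are their own reverse complements, and for CTTTGA, the core of TCF/LEF motifs. These motifs do not contain each other, and capitals mark a match.
*Bmp4*: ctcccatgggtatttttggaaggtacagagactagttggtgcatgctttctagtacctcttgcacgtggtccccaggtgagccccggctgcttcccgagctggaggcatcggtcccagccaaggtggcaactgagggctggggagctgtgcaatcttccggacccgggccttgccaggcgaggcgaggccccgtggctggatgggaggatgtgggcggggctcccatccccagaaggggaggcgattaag
*Grem1*: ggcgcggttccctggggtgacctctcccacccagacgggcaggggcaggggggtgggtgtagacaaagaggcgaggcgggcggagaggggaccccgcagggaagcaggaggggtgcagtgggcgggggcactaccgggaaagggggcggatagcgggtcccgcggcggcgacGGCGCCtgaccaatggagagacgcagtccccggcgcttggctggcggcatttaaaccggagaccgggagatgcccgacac
*Grem1* had 1 match to GGCGCC and *Bmp4* had no match to any of the motifs. Promoter windows were matched for 5 of the 10 members, *Bmp4*, *Bmpr1a*, *Id2*, *Id3* and *Grem1*, and GGCGCC was found in those of *Bmpr1a*, *Id2* and *Grem1*. Of all 32851 such windows, which are 300 bases long and include the start of the transcript, unlike the shorter stretches printed here, 11.9% hold GGCGCC, 0.213% hold GTCTAGAC and 16.0% hold CTTTGA.

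*Bambi* (ENSMUSG00000024232; chr18:3507957-3516404, plus strand) was lower in *Ctnnb1* Δi.enh crypts. The wild-type libraries had 2.65, 3.84 and 4.9995 FPKM, from 207, 296 and 395 fragments, and the knockout libraries had 2.46, 2.36 and 2.18 FPKM, from 202, 199 and 154. The knockout libraries lay close together just below wild-type replicate 1, while the wild-type libraries were widely spread. Mean FPKM was 3.83 ± 1.17 (SD) for the 3 wild-type and 2.33 ± 0.145 (SD) for the 3 knockout libraries, a ratio of 0.609. The log2 difference of -0.58 had a standard error of 0.211 (adjusted p = 0.811, limma with Benjamini-Hochberg adjustment), and the exact two-sided permutation p was 0.1. Without wild-type replicate 3, the highest library, the difference was -0.39 (limma adjusted p = 0.680, with a range of 0.422 to 0.99998 over all alternatives).

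In tumors *Bambi* was at 5.14, 7.80 and 11.6 FPKM in *Apc* Min/+ and at 5.68, 4.02 and 8.91 in *Ctnnb1* Δi.enh;*Apc* Min/+ libraries. The groups overlapped, and replicate 3, which expressed *Xist*, was the highest library of both. Mean FPKM was 8.20 ± 3.27 (SD) in 3 control and 6.20 ± 2.48 (SD) in 3 knockout libraries. The log2 difference of -0.37 had a standard error of 0.352 (limma adjusted p = 0.635; exact two-sided permutation p = 0.5) and ran from -0.65 to -0.09 when single libraries were omitted. The effect in tumors minus that in crypts was 0.21 with a standard error of 0.441 (limma adjusted p = 0.917), and -0.071 without *Apc* Min/+ replicate 1.

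**Figure D4:**
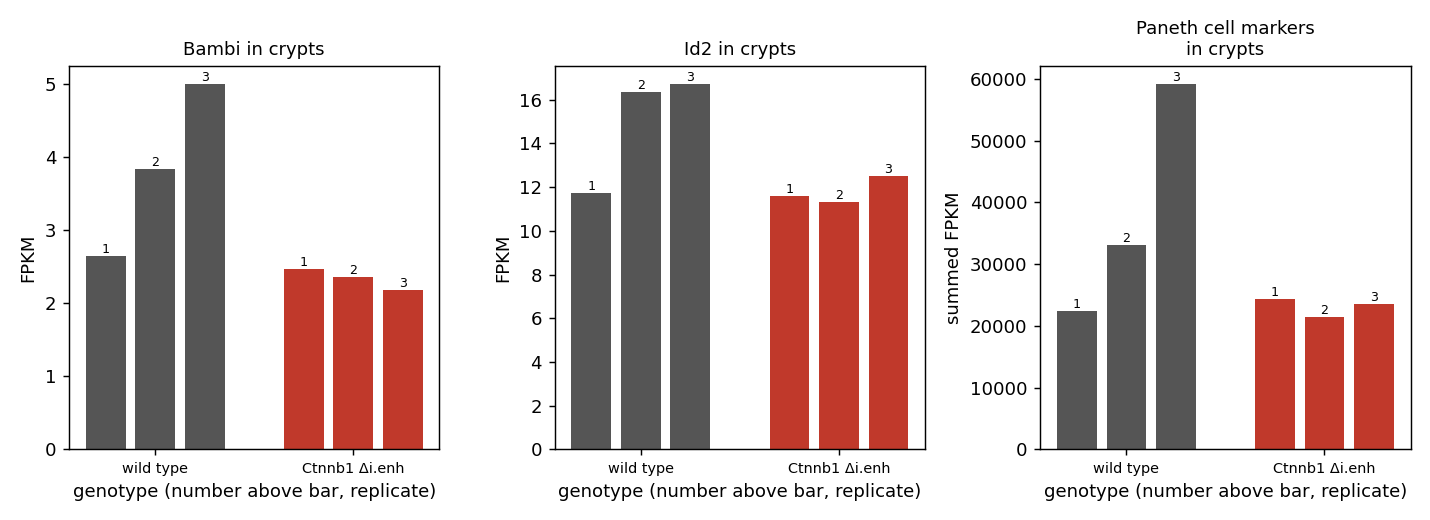
FPKM of *Bambi* (left) and *Id2* (middle) and summed FPKM of the Paneth cell markers (right) in the crypt libraries, with a bar per library and its replicate number above. Wild-type replicate 3 is the highest library in each panel, and wild-type replicate 1 is close to the knockout libraries.

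The bars of *Bambi*, *Id2* and the Paneth cell markers in crypts show the same wild-type library on top. All 7 Paneth cell markers, led by *Defa24* and with none at 0, were lower in the knockout, but 6 after quantile normalization and 6 without replicate 2 or 3 of the wild type or replicate 1 or 2 of the knockout. Villus enterocyte markers, led by *Fabp2*, summed to 3048, 4612 and 9003 FPKM in wild-type and to 6836, 5106 and 7882 in knockout crypts. Stem cell markers, led by *Olfm4*, summed to 1003, 802 and 561 FPKM against 1007, 844 and 758. Stomach markers, led by *Tff2*, summed to 203, 120 and 14.9 FPKM against 12.3, 19.6 and 9.98, so that wild-type replicates 1 and 2 were the high ones. The part of these markers in the values of the members was not tested.

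*Smad7* (ENSMUSG00000025880; chr18:75367529-75395935, plus strand) encodes an inhibitory SMAD. It was at 5.66, 8.72 and 11.1 FPKM in wild-type and at 5.96, 6.96 and 9.26 in *Ctnnb1* Δi.enh crypts. The groups overlapped, and the log2 difference of -0.16 (limma adjusted p = 0.951) was 0.046 without wild-type replicate 3. In tumors *Smad7* was at 22.7, 20.2 and 22.8 FPKM in controls and at 19.7, 23.1 and 28.1 in knockouts. Both the lowest and the highest library were knockouts, and the difference of 0.10 (limma adjusted p = 0.765) was -0.034 without knockout replicate 3.

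The *Id* genes, targets of BMP signaling, encode inhibitors of DNA-binding transcription factors. *Id2* (ENSMUSG00000020644; chr12:25093799-25097140, minus strand) was at 11.7, 16.3 and 16.7 FPKM in wild-type and at 11.6, 11.3 and 12.5 in *Ctnnb1* Δi.enh crypts. Wild-type replicate 1 fell among the knockout libraries, and the other wild-type libraries were above them. The log2 difference of -0.31 had a standard error of 0.158 (limma adjusted p = 0.860; exact two-sided permutation p = 0.2) and was -0.22 without wild-type replicate 3 and -0.47 without wild-type replicate 1, the extremes with a single library omitted. In tumors *Id2* was at 26.8, 26.1 and 36.5 FPKM in controls and at 21.3, 22.6 and 31.9 in knockouts. Replicate 3 was the highest in both genotypes, and the difference was -0.24 (limma adjusted p = 0.577). It was -0.087 without *Apc* Min/+ replicate 3, -0.13 without knockout replicate 1 and -0.42 without knockout replicate 3.

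*Id1* (ENSMUSG00000042745; chr2:152736251-152737410, plus strand) was at 55.6, 76.2 and 101.2 FPKM in wild-type and at 54.0, 75.4 and 69.4 in *Ctnnb1* Δi.enh crypts. Apart from wild-type replicate 3 the libraries overlapped closely, and the log2 difference of -0.20 (limma adjusted p = 0.931) was 0.010 without it. In tumors *Id1* was at 193, 206 and 183 FPKM in controls and at 188, 171 and 288 in knockouts. Knockout replicate 3 was the highest, and the difference of 0.12 (limma adjusted p = 0.803) was -0.11 without it.

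*Id3* (ENSMUSG00000007872; chr4:136143497-136145755, plus strand) was at 35.0, 44.3 and 57.6 FPKM in wild-type and at 39.8, 43.5 and 37.9 in *Ctnnb1* Δi.enh crypts. The knockout libraries lay within the wild-type range, and the log2 difference of -0.15 (limma adjusted p = 0.935) was 0.036 without wild-type replicate 3. In tumors *Id3* was at 107, 116 and 113 FPKM in controls and at 96.4, 114 and 185 in knockouts. Knockout replicate 3 was again the highest, and the difference of 0.18 (limma adjusted p = 0.731) was -0.092 without it.

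The knockout effect in tumors minus that in crypts was tested for the 8 members that passed the filter in both tables. With limma, 0 of them passed an adjusted p of 0.05, where 0 of 13370 genes did (0%), and 0 had an unadjusted p under 0.05, beside 8.47% of all genes. Besides *Bambi*, the difference was 0.62 for *Bmp2*, 0.32 for *Bmp7*, -0.39 for *Bmpr1a*, 0.26 for *Smad7*, 0.32 for *Id1*, 0.07 for *Id2* and 0.33 for *Id3*. With single libraries omitted it ran from 0.27 to 0.95 for *Bmp2*, 0.23 to 0.38 for *Bmp7*, -0.52 to -0.22 for *Bmpr1a*, 0.050 to 0.51 for *Smad7*, 0.091 to 0.54 for *Id1*, -0.11 to 0.23 for *Id2* and 0.054 to 0.52 for *Id3*. At an unadjusted p under 0.05 there were then 2 members without wild-type crypt replicate 1 (*Bmp2* and *Bmpr1a*) and 1 without knockout crypt replicate 1 (*Bmp7*). No share over all genes is given for those fits, so the counts are not read as a result about the members.

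The members belong to 6 wider lists of 56 genes, of which 28 were tested in crypts and 45 in tumors. With limma 0 genes passed adjustment in either tissue. At an unadjusted p under 0.05 there were 2 lower and 0 higher in crypts, and 1 lower and 5 higher in tumors, beside 2.36% lower in crypts and 6% lower and 8.46% higher in tumors over all genes. In crypts these counts were 1 lower and 0 higher without wild-type replicate 3, and likewise without wild-type replicate 2 or knockout replicate 2 or 3. They were 5 lower and 1 higher without wild-type replicate 1 and 4 lower when scaled without the 50 highest genes. Over all genes, 350 of 14063 were lower without wild-type replicate 3, 641 of 14171 without wild-type replicate 1 and 503 of 14176 under that scaling. In tumors there was 1 higher without *Apc* Min/+ replicate 2, beside 850 of 16700 over all genes. There were 3 higher without replicate 3 of either genotype, beside 852 of 16742 genes for *Apc* Min/+ and 1075 of 16776 for the knockout. There were 3 higher with the replicate block (1160 of 16743 genes), 7 by voom (1433) and 9 without a variance trend (1261). Quantile normalization gave 3 lower, beside 1282 of 16743 genes. Directions within the lists are given below for the main fit, with the range in parentheses over 11 fits, which are the main fit, 3 other scalings, voom and 6 fits that omit a single library.

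Of the ligands, 3 of 4 were lower in crypts (2 to 3) and all 8 higher in tumors (7 to 8). The count of 2 in crypts came without knockout replicate 1. Of the receptors and co-receptors, 3 of 6 were lower in crypts (3 to 5, the most without wild-type replicate 3) and 5 of 9 in tumors (4 to 6). Secreted antagonists were lower in 3 of 3 cases in crypts (2 to 3, the fewest without wild-type or knockout replicate 1) and higher in 9 of 11 in tumors (8 to 10). Intracellular and membrane inhibitors were lower in 4 of 7 cases in crypts (3 to 5) and in 6 of 7 in tumors (3 to 6, the fewest without *Apc* Min/+ replicate 3). The signaling SMAD genes were higher in 3 of 3 cases in crypts (2 to 3, the fewest without wild-type replicate 1 or 3 and when scaled without the 50 highest genes) and lower in 4 of 4 in tumors (3 to 4). Targets were lower in 5 of 5 cases in crypts (3 to 5, the fewest without wild-type replicate 3) and higher in 5 of 6 in tumors (3 to 5, the fewest without knockout replicate 3 and after quantile normalization).

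The fibroblast and smooth muscle markers were higher in tumors along with the ligands and the secreted antagonists, in 9 of 10 cases (9 to 10). Their part in the directions of those lists was not tested.

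For comparison, Wnt feedback targets were lower in 8 of 10 cases in crypts (8 to 9) and in 12 of 12 in tumors (9 to 12, the fewest without *Apc* Min/+ replicate 3). Genes of the TGF-β and activin arm were lower in 5 of 8 cases in crypts (4 to 7, the most when scaled without the 50 highest genes) and in 6 of 12 in tumors (5 to 7).

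*Atoh8*, a transcription factor gene that BMP signaling induces, was the other list gene with an unadjusted p under 0.05 in crypts. It was at 1.83, 1.83 and 1.501 FPKM in wild-type and at 0.931, 0.952 and 1.11 in *Ctnnb1* Δi.enh libraries, from at most 71 fragments each. No knockout library reached a wild-type one. Its log2 difference of -0.57 had a standard error of 0.160 (limma adjusted p = 0.769) and was -0.64 without wild-type replicate 3. In tumors *Atoh8* was at 4.98, 6.16 and 5.28 FPKM in controls and at 5.53, 7.11 and 8.85 in knockouts. The groups overlapped there, with a difference of 0.34, or 0.19 without knockout replicate 3, and the effect in tumors minus that in crypts was 0.91 (limma adjusted p = 0.437).

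In tumors 5 list genes besides *Bmp4* had an unadjusted p under 0.05, each with groups that did not overlap. Over all genes, 14.5% had such a p and 22.1% had groups that did not overlap. Among the 45 list genes tested, the share with such a p was no higher. Of 18 alternatives, p stayed under 0.05 in 17 for *Acvrl1*, 15 for *Acvr2a*, 13 for *Nbl1*, 12 for *Eng* and 10 for *Bmp6*, against 18 for *Bmp4*. It was over 0.05 without *Apc* Min/+ replicate 2 for *Acvrl1*, *Nbl1*, *Eng* and *Bmp6*, and with the replicate block for all but *Acvrl1* and *Bmp4*. Quantile normalization lost *Nbl1* and *Eng*, and equal totals, voom or scaling without the 50 highest genes lost *Bmp6*. Omission of replicate 3 of either genotype lost *Acvr2a* and *Eng*, together with *Nbl1* for *Apc* Min/+ and *Bmp6* for the knockout. *Nbl1* was also lost without knockout replicate 2, *Eng* without knockout replicate 1 and *Bmp6* without replicate 1 of either genotype. *Acvrl1*, a type I receptor of endothelial cells, was at 7.07, 5.85 and 5.90 FPKM in controls and at 7.58, 9.09 and 8.25 in knockouts, a log2 difference of 0.38 (limma adjusted p = 0.296). *Eng*, an endothelial co-receptor, was at 18.6, 16.2 and 14.5 against 20.1, 19.4 and 21.4 FPKM, a difference of 0.30 (limma adjusted p = 0.316). Both were higher in the knockout, as were the summed endothelial markers given above. Among the knockout libraries, *Acvrl1* was highest in replicate 2, *Eng* in replicate 3 and the endothelial sum in replicate 1. The part of the endothelial markers was not tested.

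*Nbl1*, a secreted antagonist, was at 35.9, 26.2 and 27.7 FPKM in control and at 36.5, 45.5 and 38.1 in knockout tumors, with control replicate 1 close to knockout replicate 1 and a log2 difference of 0.42 (limma adjusted p = 0.312). The libraries ranked by *Nbl1* as they did by the summed fibroblast and smooth muscle markers, apart from control replicates 2 and 3, and the part of those markers was not tested. *Bmp6*, a ligand, was at 3.93, 4.15 and 4.72 against 5.23, 4.97 and 5.64 FPKM, a difference of 0.28 (limma adjusted p = 0.336). It shares 224 bases with *Txndc5* on the opposite strand, which had a mean of 91.8 FPKM in tumors, and reads from them cannot be told apart. *Acvr2a*, a type II receptor, was the gene that was lower, at 6.16, 6.13 and 7.10 against 5.38, 5.15 and 4.80 FPKM, a difference of -0.31 (limma adjusted p = 0.305). It shares 446 bases with *Orc4* on the opposite strand, which had a mean of 5.54 FPKM in tumors, and those reads cannot be told apart either.

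Across the 12 libraries, with each gene centered on the mean of its table, the 5 genes most like *Bambi* among 11563 were *Nts*, *Id2*, *Clk3*, *Amt* and *Zfp764*, with Pearson correlations of 0.897, 0.882, 0.872, 0.869 and 0.868. Among the other members *Bmp2* was at 0.769, *Id1* at 0.564, *Id3* at 0.557, *Smad7* at 0.433, *Bmp7* at 0.250 and *Bmpr1a* at -0.15. *Ctnnb1* was at 0.631. These values describe points that share libraries and the scaling of a table, and the library with the most *Bambi* in each tissue was replicate 3 of the control.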

How the data were processed

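RNA was measured in crypts and tumors of separate mice, 3 per group, which are the replicates, and p-values measure the spread between them. The authors deposited FPKM per gene and library in a table for each tissue; the submitters' processing notes name cutadapt, HISAT2, Cufflinks 2.2.1, DESeq2 and build mm10, and the study's methods name featureCounts for the reads per gene. Whether FPKM came from Cufflinks or from those counts, and whether counting used strand, are not given in the sources used here, so reads of *Bmp4* and of *Gm15222*, which shares 1764 bases with it on the opposite strand (mean 1.34 FPKM in tumors), cannot be told apart. FPKM times gene length fell within 0.1 of whole multiples of a step in 100% of values above 0, and that step was taken as 1 fragment. Positions of 9 of the 10 members are the same in GENCODE M21, the exception being *Bambi*.

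limma 3.58.1 in R 4.3.3 was run with a variance trend on log2 values with a pseudocount of 0.5, for genes averaging 0.5 FPKM or more, in each tissue alone and, for the difference of effects, over all 12 libraries. The adjusted p (Benjamini-Hochberg, all genes tested) had a threshold of 0.05. Exact permutation tests used scipy 1.17.1. The code was tested on simulated data. Named were the members, *Ctnnb1*, genes of the BMP lists with an unadjusted p under 0.05, and the 5 genes most like *Bambi* among those averaging at least 1 FPKM in both tables. Members and lists were chosen with earlier results of these data known. Alternatives were other pseudocounts, filters, scalings and variance models, voom, a replicate block, each library left out and, chosen after seeing the data, the sex of the library as a covariate in tumors.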

Additional observations from a re-analysis of the deposited data

Results flagged for a closer look

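*Id4*, a BMP target of the *Id* family that was named after its values had been seen, differed in opposite directions in the tissues. In crypts it was at 2.70, 3.98 and 2.75 FPKM in wild-type and at 1.13, 2.56 and 2.59 in *Ctnnb1* Δi.enh libraries, so that every knockout library was below every control. In tumors it was at 0.514, 0.740 and 0.504 FPKM in *Apc* Min/+ and at 0.775, 1.62 and 0.983 in *Ctnnb1* Δi.enh;*Apc* Min/+ libraries, so that every knockout library was above every control. Groups that did not overlap were found for 5.15% of all genes, lower, in crypts and for 11.4%, higher, in tumors. The unadjusted limma p of *Id4* was 0.104 in crypts and 0.0583 in tumors. The effect in tumors minus that in crypts was 1.09 on the log2 scale (adjusted p = 0.555, limma with Benjamini-Hochberg adjustment), which did not pass the threshold.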

How the results depend on the processing

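With limma, 0 members passed an adjusted p of 0.05 under any alternative run, and 0 genes of the BMP lists did in either tissue. At an unadjusted p under 0.05 there was 1 member in each tissue, also by voom, which called 0 genes after adjustment. With single libraries omitted there were 0 to 3 in crypts and 1 to 2 in tumors. Over all genes, 0 were called in crypts and tumors, against 3 in crypts without wild-type replicate 3 (*Pgc*, *Gkn1* and *Gkn2*, stomach genes named after their values were seen; range 0 to 3 with single libraries omitted) and 1 in tumors without a variance trend (*Mir3473e*, likewise). For the difference of effects, a pseudocount of 0.1 called *Trbj1-6*, which was also named after its values were seen.

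With single crypt libraries omitted, the log2 difference in crypts ran from -0.42 to 0.010 for *Id1*, from -0.32 to 0.036 for *Id3* and from -0.41 to 0.046 for *Smad7*, each positive without wild-type replicate 3. In tumors it ran from -0.058 to 0.43 for *Bmp2*, -0.061 to 0.079 for *Bmp7*, -0.11 to 0.26 for *Id1*, -0.092 to 0.38 for *Id3* and -0.034 to 0.22 for *Smad7*. The effect in tumors minus that in crypts ran from -0.071 to 0.48 for *Bambi* and from -0.11 to 0.23 for *Id2*. In tumors *Bmp7* was at -0.012 with equal totals, -0.061 after quantile normalization and -0.011 when scaled without the 50 highest genes, and quantile normalization gave -0.10 for *Id1* and -0.017 for *Id3*. The cause was not tested. The other 324 values under alternatives, and 249 with a library omitted, kept direction and side of the threshold, among them the values that an alternative could not change.

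At an unadjusted p under 0.05, crypts had 494 genes higher and 335 lower, against 299 and 503 when scaled without the 50 highest genes. Tumors had 1417 higher and 1004 lower, against 1075 and 1344 with equal totals, 1116 and 1282 after quantile normalization and 1079 and 1339 without the 50 highest genes. With 1 library omitted, crypts had 700 and 641 without wild-type replicate 1 and 241 and 217 without knockout replicate 1, and tumors had 850 and 546 without *Apc* Min/+ replicate 2 and 852 and 576 without *Apc* Min/+ replicate 3.

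With the replicate number as a replicate block, 0 genes were called in either tissue. Each block holds 1 library per group, so the block cannot change a log2 difference, and neither can the filters, the variance models or the sex of the library as a covariate; equal differences there show no stability. Deviations of libraries with the same number correlated at -0.047, -0.12 and 0.037 in crypts and at 0.054, -0.090 and 0.053 in tumors. These values showed no pairing by number, but 3 libraries per group are too few to exclude one. In tumors, replicate 3 of both genotypes expressed *Xist*. *Bmp4* and *Grem1* in crypts rest on at most 6 fragments per library, and no difference was detectable there at this depth.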
